A study of Mus musculus with 9 samples.

Results

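The translation initiation factors are the 48 genes whose symbols in the count tables start with Eif1 to Eif6, leaving out the eIF2 alpha kinases (Eif2ak) and the eIF4E-binding proteins (Eif4ebp), out of 23238 gene symbols in all. The rule reads gene symbols only. Their mRNAs were counted by sequencing the 3′ ends of transcripts from the gastrocnemius, a muscle of the calf. The mice were female C57BL/6, labelled as 4 weeks old, and made up 3 groups of 3 libraries. Mice of the Normal group had 4 saline injections, 1 on every other day, and water by mouth over 9 days. Mice of the Cisplatin group received 4 intraperitoneal doses of 3 mg/kg of this DNA-crosslinking chemotherapy drug instead of saline. The RP group had the same cisplatin plus 100 mg/kg RP by mouth; the series title names an extract of Paeonia lactiflora, and the labels do not spell out RP. No group had RP without cisplatin. The labels do not say whether each library is a separate mouse, so p-values measure the spread between these libraries, which may be technical.

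Initiation is the step at which a ribosome is loaded onto an mRNA and placed on its start codon. eIF2 brings the initiator methionyl-tRNA to the small ribosomal subunit as a complex with GTP, and eIF2B recharges eIF2 with GTP afterwards. eIF1, eIF1A, eIF3 and eIF5 hold that subunit ready to scan. The cap-binding complex eIF4F, made of the cap-binding protein eIF4E, the scaffold eIF4G and the helicase eIF4A, recruits the mRNA, and eIF5B joins the large subunit. In skeletal muscle this step is a known point of control of protein synthesis, through phosphorylation of eIF2 alpha and through the eIF4E-binding proteins that act below the kinase mTOR.

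Values are given in CPM, counts scaled to a common library size, here with the TMM method. Library totals ran from 8196030 to 10678342 counts. Rn45s, the ribosomal RNA precursor, made up 12.6 to 12.8% of counts (Normal), 9.23 to 12.1% (Cisplatin) and 7.38 to 11.8% (RP). The labelled tissue was checked by 6 skeletal muscle markers, all detected, whose summed level was 74983 to 85720.0 CPM (Normal), 61482 to 73497 (Cisplatin) and 80255 to 92522 (RP). Cisplatin lay below both other groups with no overlap. Acta1 (means of 26350 CPM in Normal and 11055 in Cisplatin), Ckm, Myh1 and Pygm were lower in Cisplatin than in Normal. Tnnt3 was higher (12755 and 16208), and Myh4 was nearly level (26083 and 26304). Markers of several other cell types differed between the groups. The 4 erythroid markers summed to 4114 to 8894 CPM (Normal), 34 to 60.3 (Cisplatin) and 64.1 to 405 (RP). The 5 fibroblast markers summed to 2582 to 3688 CPM (Normal), 329 to 724 (Cisplatin) and 1818 to 2668 (RP), the 4 tendon markers to 175 to 357 CPM (Normal), 4.47 to 11.7 (Cisplatin) and 45.3 to 75.4 (RP), and the 4 macrophage markers to 101 to 115 CPM (Normal), 30.8 to 42.7 (Cisplatin) and 42.3 to 69.9 (RP). Of the macrophage markers, Csf1r, Adgre1 and C1qa had lower means in Cisplatin than in Normal, while Cd68 had means of 4.26 CPM (Normal), 19.8 (Cisplatin) and 4.89 (RP). The 3 lymphocyte markers summed to 54 to 66.8 CPM (Normal), 0.595 to 2.47 (Cisplatin) and 12.4 to 18.4 (RP). This sum was nearly all Cd74, with means of 58.2 CPM (Normal), 1.46 (Cisplatin) and 14.1 (RP). Cd3e and Cd79a had Normal means of only 0.474 and 0.201 CPM, so the sum does not measure lymphocytes. The 2 smooth muscle markers summed to 123 to 164 CPM (Normal), 45.4 to 78.3 (Cisplatin) and 133 to 165 (RP). Other sets overlapped between Normal and Cisplatin. The 3 adipocyte markers summed to 188 to 1327 CPM (Normal), 42.7 to 209 (Cisplatin) and 758 to 1021 (RP) and the 3 endothelial markers to 164 to 201 CPM (Normal), 133 to 176 (Cisplatin) and 145 to 204 (RP). The 2 neutrophil markers present summed to 3.01 to 37.3 CPM (Normal), 7.02 to 51.2 (Cisplatin) and 3.58 to 10.5 (RP) and the 2 liver markers to 194 to 517 CPM (Normal), 84.8 to 339.8 (Cisplatin) and 255 to 809 (RP). Kera, Cd3e and Cd79a were at 0 in all Cisplatin libraries. Their part in the changes described here was not tested. In whole muscle a change in the make-up of cells and a change of RNA within a cell cannot be told apart.

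Initiation factor mRNAs rose almost throughout in Cisplatin. Of the 44 members with enough counts to be tested, 38 rose, 1 fell and 5 were not called by edgeR's quasi-likelihood test at a Benjamini-Hochberg adjusted p under 0.05. The 1 that fell was Eif4e, the cap-binding protein. Changes of single genes are log2 fold changes ± SE from that test. Among all genes tested 54.5% were called in this comparison, 26.3% as higher and 28.2% as lower. The median log2 fold change was 1.01 over the 44 members and -0.08 over all genes tested, and 22 of the 44 rose by a log2 of at least 1. The share of all genes that rose as much was not counted. Regardless of direction, the median size of the log2 fold change was 0.68 over all genes tested and 1.01 over the members. Over the 44 tested members, the lowest Cisplatin library exceeded the highest Normal one in 39. In 1, Eif4e, the highest Cisplatin library lay under the lowest Normal one, and 4 overlapped. The 39 include all 38 risen members, which were called from these same libraries. Groups stood apart like this in 62.2% of all genes, 30.3% with Cisplatin higher and 31.9% with Cisplatin lower.

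Together the 48 genes held 5523, 5883 and 5709 CPM in the Normal libraries. They held 11668, 11359 and 14018 in Cisplatin and 7077, 5971 and 7191 in RP. All Cisplatin libraries lay above all others, and RP replicate 2 stood nearest to Normal. As a share of the unscaled library total, the sum was 0.558 to 0.586% (Normal), 1.12 to 1.19% (Cisplatin) and 0.651 to 0.746% (RP). The high scaled sum of Cisplatin replicate 3 went with its TMM factor of 0.85; its unscaled share was 1.19%, against 1.19% and 1.12% in the other two. That library was the highest of its group for 26 of the 38 risen members, and RP replicate 2 the lowest of its group for 26. Without Cisplatin replicate 3, 35 members rose and 1 fell.

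**Figure D1:**
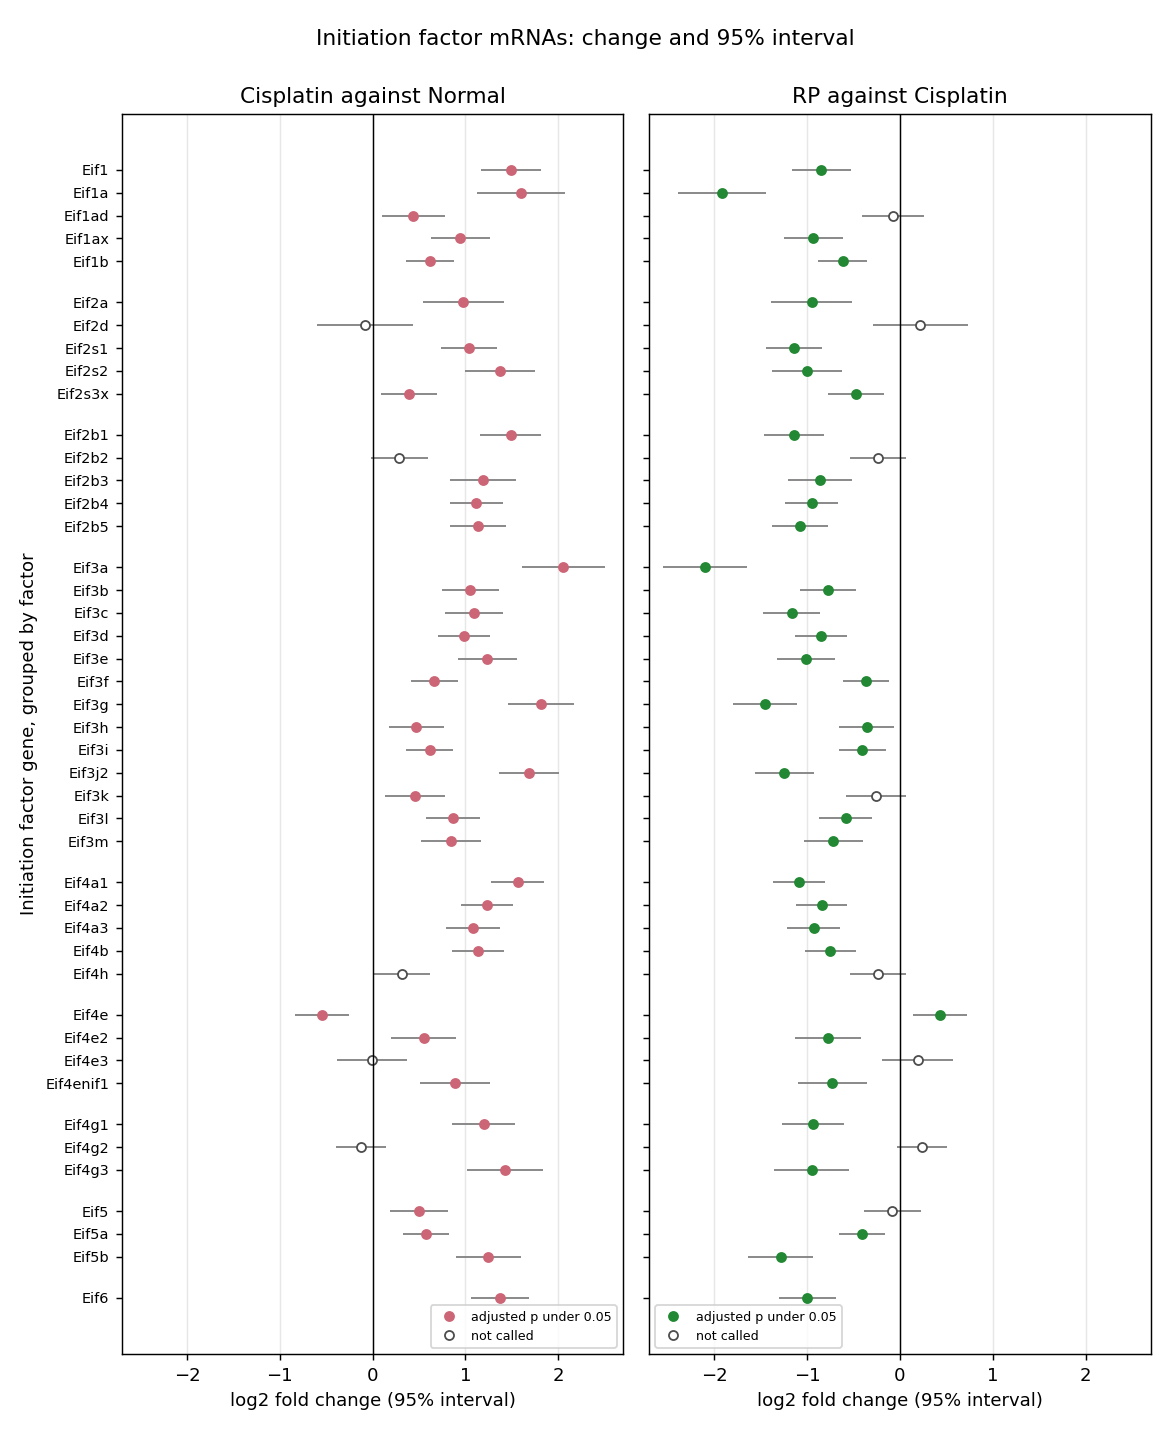
Log2 fold change (x axis) of the 44 tested initiation factor mRNAs (rows, grouped by factor) in Cisplatin against Normal on the left and RP against Cisplatin on the right. Points are edgeR estimates, lines their 95% intervals, and open points did not pass the adjusted p of 0.05; 38 filled points lie right of 0 on the left side and 35 lie left of 0 on the right side, and Eif4e lies on the other side each time.

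The promoters of the member with the largest rise, of the rising scaffold Eif4g1 and of Eif4e, which fell, are printed because Eif3a and Eif4g1 rose while Eif4e fell. Each is a RefSeq window of the GRCm38.p6 build, from 250 bases before to 50 after an annotated start, 5′ to 3′ on the gene's strand. Capitals mark CACGTG, the E-box bound by MYC and the clock factors, and the GC box GGGCGG, each searched on both strands. Eif3a (chr19:60790644-60790943, minus strand) holds 1 CACGTG and 1 GC box, and Eif4g1 (chr16:20672477-20672776, plus strand) holds 2 and 3. For Eif4e the table lists 2 starts. The window of the upstream start (chr3:138525941-138526240, plus strand) holds neither motif, and the other, printed here (chr3:138527018-138527317, plus strand), holds 2 CACGTG and no GC box.
Eif3a: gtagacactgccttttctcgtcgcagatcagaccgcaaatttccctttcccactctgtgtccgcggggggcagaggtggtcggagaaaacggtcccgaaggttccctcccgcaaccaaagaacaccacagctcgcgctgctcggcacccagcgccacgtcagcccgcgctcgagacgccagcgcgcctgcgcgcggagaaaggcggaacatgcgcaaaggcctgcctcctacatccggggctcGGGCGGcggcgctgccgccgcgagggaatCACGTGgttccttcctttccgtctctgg
Eif4g1: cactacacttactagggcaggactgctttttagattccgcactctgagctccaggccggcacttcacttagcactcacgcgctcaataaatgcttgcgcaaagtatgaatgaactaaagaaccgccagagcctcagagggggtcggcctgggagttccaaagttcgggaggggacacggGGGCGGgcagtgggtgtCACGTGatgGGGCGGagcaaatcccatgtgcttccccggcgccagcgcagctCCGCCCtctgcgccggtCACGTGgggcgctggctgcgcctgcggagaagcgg
Eif4e: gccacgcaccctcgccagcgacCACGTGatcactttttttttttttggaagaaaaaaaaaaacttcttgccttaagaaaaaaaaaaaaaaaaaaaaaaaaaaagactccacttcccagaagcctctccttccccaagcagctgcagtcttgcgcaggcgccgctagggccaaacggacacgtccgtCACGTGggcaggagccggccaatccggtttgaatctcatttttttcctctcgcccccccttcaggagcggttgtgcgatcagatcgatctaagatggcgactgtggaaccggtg

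A RefSeq window matched for 35 of the 44 tested members, taking the first start listed for each gene. CACGTG was in 7 of them (20%), Eif1b, Eif3a, Eif3f, Eif3k, Eif4a1, Eif4g1 and Eif4h, against 10.2% of the 9751 tested genes with a window and 7.24% of all 27025 windows. The GC box was in 26 members (74.3%), against 63.3% of tested genes and 35.9% of all windows. The FoxO motif GTAAACA was in 0 members, 2.48% of tested genes and 3.55% of all windows. The ATF4 motif TGATGNAA was in 1 member, Eif2s3x, in 2.18% of tested genes and in 4.06% of all windows. Both were searched on both strands, and no motif searched lies within another. By its first listed start Eif4e is not among the genes with CACGTG. Its printed window, at the other start, carries CACGTG, as do those of Eif3a and Eif4g1. Any part of these motifs in the changes was not tested.

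All 5 genes of the eIF1 and eIF1A group rose in Cisplatin. Eif1, whose protein guards start codon choice during scanning, lies at chromosome 11, 100319885 to 100322096 on the plus strand of GRCm38. It was at 494, 555 and 565 CPM in the 3 Normal libraries, 1549, 1381 and 1608 in Cisplatin and 928, 690.2 and 908 in RP. Every Cisplatin library was above every RP library, and every RP library above every Normal one. Its log2 fold change was 1.49 ± 0.15 (adjusted p = 3.00e-06). Eif1b, a close relative, was at 89.9, 94.1 and 96.3 CPM in the 3 Normal libraries, 129.6, 160.2 and 141 in Cisplatin and 90, 90.7 and 100.1 in RP, so that Cisplatin stood apart and RP overlapped Normal, with a change of 0.62 ± 0.12 (adjusted p = 0.000767). Eif1a, an eIF1A gene, was at 12.1, 21.9 and 18.2 CPM in the 3 Normal libraries, 42.9, 64.9 and 50.1 in Cisplatin and 15.1, 15.3 and 11.5 in RP. The 3 Cisplatin libraries again stood above all others, with a change of 1.60 ± 0.22 (adjusted p = 4.57e-05). Eif1ax, the X-linked eIF1A gene, was at 41.8, 40.2 and 49.9 CPM in the 3 Normal libraries, 74.1, 85 and 95.2 in Cisplatin and 43.2, 39.6 and 50.2 in RP and changed by 0.95 ± 0.15 (adjusted p = 0.000133), with RP again overlapping Normal. Eif1ad, which encodes a protein with an eIF1A domain, rose least in the group, by 0.44 ± 0.16 (adjusted p = 0.029). That call was lost with library size scaling, with a filter of 5 CPM in 3 libraries and without Normal replicate 1 or 2 or Cisplatin replicate 2 or 3 (adjusted p = 0.0508 to 0.088).

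Of the 5 tested genes of eIF2 and tRNA delivery, 4 rose. Eif2s1, the alpha subunit that the stress kinases phosphorylate, went from 43.6 ± 1.98 to 89.4 ± 7.12 CPM (mean ± SD, n = 3), with 40.6 ± 6.25 in RP, a log2 fold change of 1.04 ± 0.14 (adjusted p = 3.86e-05). Eif2s2, the beta subunit, went from 619 ± 15.8 to 1598 ± 416 CPM, with 799 ± 92.1 in RP, a change of 1.37 ± 0.18 (adjusted p = 2.43e-05). The gamma subunit Eif2s3x changed less, by 0.39 ± 0.14 (adjusted p = 0.0313), from 37.5 ± 1.78 to 49.1 ± 5.82 CPM, with 35.3 ± 3.69 in RP. Its rise was not called with library size scaling, with a filter of 5 CPM in 3 libraries and without Normal replicate 2 or 3 or Cisplatin replicate 1 or 3 (adjusted p = 0.0563 to 0.109). Eif2a, which can carry methionyl-tRNA apart from eIF2, rose by 0.98 ± 0.20 (adjusted p = 0.00115). Eif2d was at 11 ± 2.85 and 10.4 ± 2.54 CPM and was not called, with a 95% interval of -0.60 to 0.44. Eif2s3y, the Y-linked gamma subunit, had 4 counts over the 9 libraries of these female mice and was not tested.

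The exchange factor eIF2B rose in 4 of its 5 subunits. Eif2b1, the alpha subunit, was at 25.2, 32.4 and 25.4 CPM in the 3 Normal libraries, 81.7, 67.8 and 83.4 in Cisplatin and 31.8, 34.3 and 39.4 in RP. Each Cisplatin library exceeded each other library, while RP and Normal overlapped, and the change in Cisplatin was 1.49 ± 0.15 (adjusted p = 4.06e-06). Eif2b5, the catalytic epsilon subunit, rose by 1.13 ± 0.14 (adjusted p = 1.78e-05), from 48.4 ± 2.88 to 106 ± 4.41 CPM, with 50.4 ± 8.1 in RP. The gamma and delta subunits, Eif2b3 (1.18) and Eif2b4 (1.12), moved by nearly the same amount. The beta subunit Eif2b2, at 58.7 ± 8.36 and 71.8 ± 7.39 CPM, was not called (adjusted p = 0.0999). Its 95% interval of -0.02 to 0.60 lay below that of Eif2b1, 1.16 to 1.82, with no overlap. Without Normal replicate 2 it was called (adjusted p = 0.0497).

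All 13 tested subunits of eIF3, the largest initiation factor, rose, by log2 fold changes from 0.46 to 2.05. Eif3a, the subunit on which the complex is built, lies at chromosome 19, 60761117 to 60790658 on the minus strand and changed most of all 44 members. It was at 345, 384 and 367 CPM in the 3 Normal libraries, 1197, 1334 and 2019 in Cisplatin and 385, 267 and 414 in RP. Cisplatin replicate 3 was the highest, Normal and RP overlapped, and the change in Cisplatin was 2.05 ± 0.21 (adjusted p = 3.59e-06). Eif3g, an RNA-binding subunit, was at 40.8, 50.2 and 39.1 CPM in the 3 Normal libraries, 153, 137 and 167 in Cisplatin and 64.4, 43.6 and 59.1 in RP. Cisplatin stood apart from both other groups here too, with a change of 1.81 ± 0.16 (adjusted p = 1.34e-06). Eif3j2, a copy of the loosely bound subunit j, was at 107, 117 and 88.1 CPM in the 3 Normal libraries, 319, 306 and 377 in Cisplatin and 158, 124 and 141 in RP. Every RP library lay between the other groups, and the change in Cisplatin was 1.68 ± 0.15 (adjusted p = 1.14e-06). Of the 50-base words in the last 300 bases of its annotated transcripts, 80.1% also occur somewhere in the transcripts of its near-identical copy Eif3j1. Of such words in the last 300 bases of Eif3j1, 0% occur in another gene. Eif3j1 had 36 counts in all and was not tested, and the division of reads between the copies is uncertain.

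The smallest changes in eIF3 were those of Eif3k (0.46), Eif3h (0.47), Eif3i (0.62) and Eif3f (0.66). Eif3k went from 69.6 ± 4.8 to 95.6 ± 13.7 CPM, with 80 ± 12.9 in RP, and its 95% interval of 0.13 to 0.78 did not reach that of Eif3a, 1.60 to 2.50. In eIF3 the subunits a, c, e, f, h, k, l and m form a common core of PCI and MPN domain proteins. Over these 8 the median change was 0.86, and over b, d, g, i and j2 it was 1.05. The changes ran from 0.46 to 2.05 within the core and from 0.62 to 1.81 over b, d, g, i and j2. A difference between these sets was not tested. The scaffold subunit Eif3b rose by 1.05, the cap-binding subunit Eif3d by 0.99, and Eif3c, Eif3e, Eif3l and Eif3m by 1.09, 1.24, 0.86 and 0.85. The other subunits are given as mean ± SD of 3 libraries. Eif3c, a core subunit that contacts eIF1, was at 198 ± 3.09 CPM in Normal, 421 ± 83 in Cisplatin and 188 ± 11.3 in RP. Eif3e was at 134 ± 14.8 CPM in Normal, 315 ± 52.6 in Cisplatin and 156 ± 12.2 in RP. In both, RP overlapped Normal and lay below Cisplatin. Eif3b was at 39.2 ± 6.65 CPM in Normal, 81.2 ± 6 in Cisplatin and 47.5 ± 2.33 in RP and Eif3d at 47.1 ± 3.46 CPM in Normal, 93.3 ± 11 in Cisplatin and 51.9 ± 1.94 in RP. Eif3l, which pairs with Eif3k in the complex, was at 32.5 ± 4.46 CPM in Normal, 59.1 ± 0.873 in Cisplatin and 39.4 ± 1.3 in RP, and every RP library of it lay between the other groups. Eif3m was at 49.4 ± 2.36 CPM in Normal, 88.9 ± 16.2 in Cisplatin and 54.1 ± 5.97 in RP, Eif3f at 153 ± 11.9 CPM in Normal, 242 ± 11.4 in Cisplatin and 188 ± 10 in RP and Eif3h at 128 ± 17.7 CPM in Normal, 177 ± 16.2 in Cisplatin and 138 ± 12.5 in RP. Eif3i was at 101 ± 3.68 CPM in Normal, 155 ± 12 in Cisplatin and 117 ± 8.39 in RP. For all 9 of these subunits every RP library lay below every Cisplatin library, and for Eif3d, Eif3f, Eif3i and Eif3l every RP library also lay above every Normal one. The summed level of the 14 eIF3 genes was 1464 ± 84.6 CPM in Normal, 3732 ± 684 in Cisplatin and 1612 ± 158 in RP. The rise of Eif3k was lost with library size scaling and without Normal replicate 1 or Cisplatin replicate 1 (adjusted p = 0.0508 to 0.0868), and that of Eif3h without Normal replicate 1 (adjusted p = 0.0553).

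**Figure D2:**
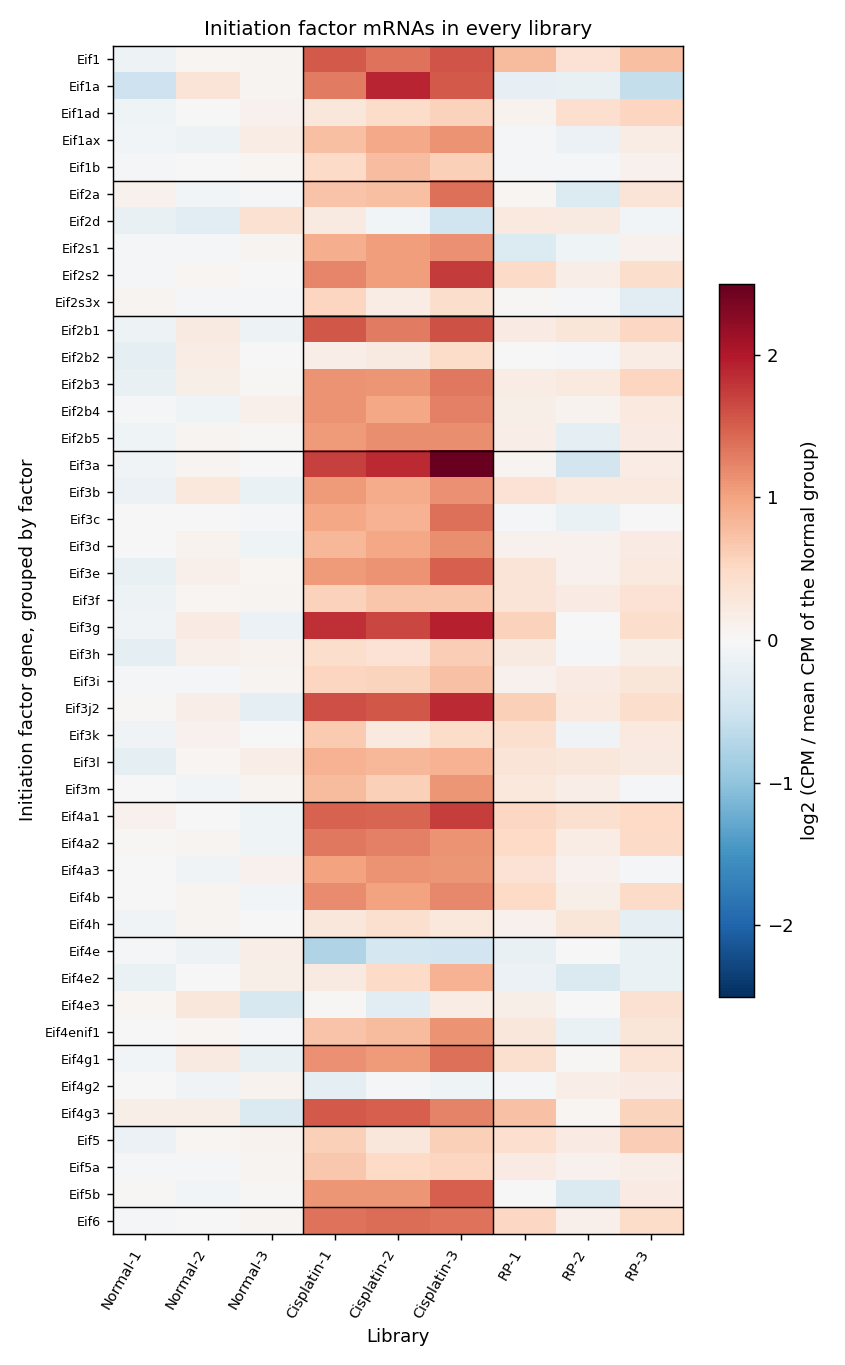
Level of each tested initiation factor mRNA (rows) in each of the 9 libraries (columns), as the log2 of its TMM-scaled CPM over the mean of the Normal group. The 3 Cisplatin columns are red for the 38 members that rose, Eif4e is blue there, and the RP columns are paler than the Cisplatin columns for most members.

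Among the helicases and their cofactors 4 of 5 genes rose. Eif4a1, the eIF4A helicase of eIF4F, was at 36, 33.3 and 30.9 CPM in the 3 Normal libraries, 93.1, 91.8 and 111 in Cisplatin and 48.1, 43.9 and 47.3 in RP. Its relative Eif4a2 was at 167, 172 and 153 CPM in the 3 Normal libraries, 408, 390.1 and 357 in Cisplatin and 231, 185 and 228 in RP. For both genes the order of the groups was Normal, RP, Cisplatin, with no overlap. Their changes in Cisplatin were 1.56 ± 0.13 (adjusted p = 7.79e-07) and 1.23 ± 0.13 (adjusted p = 4.77e-06). Eif4a3, a relative that works in the exon junction complex, rose by 1.08 ± 0.13 (adjusted p = 1.96e-05), and the helicase cofactor Eif4b by 1.13 ± 0.13 (adjusted p = 9.97e-06). The other cofactor, Eif4h, was not called at 0.31 ± 0.14 (adjusted p = 0.0742), although its Cisplatin libraries all lay above Normal. It was called in a fit of the compared groups alone (adjusted p = 0.0497).

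The cap-binding proteins split. Eif4e, at chromosome 3, 138526179 to 138559696 on the plus strand, was at 110.2, 105 and 129 CPM in the 3 Normal libraries, 67.7, 84.9 and 82.3 in Cisplatin and 101, 115 and 101 in RP. All Cisplatin libraries lay below all Normal and all RP libraries, and the change in Cisplatin was -0.55 ± 0.13 (adjusted p = 0.00369). Eif4e2, a cap-binding relative that represses translation, was at 49.3, 55.6 and 62 CPM in the 3 Normal libraries, 65.2, 77.6 and 101 in Cisplatin and 49.9, 43.5 and 49.3 in RP. Its Cisplatin libraries lay above all others, with a change of 0.55 ± 0.16 (adjusted p = 0.0117). That rise was lost without Normal replicate 1 (adjusted p = 0.0516) and without Cisplatin replicate 3 (adjusted p = 0.0535). Eif4e3, another relative, was at 79.4, 93.7 and 58.4 CPM in the 3 Normal libraries, 78.5, 64.6 and 87.3 in Cisplatin and 85.9, 77.4 and 99.9 in RP. The 3 groups overlapped, and its 95% interval was -0.39 to 0.37. Eif4enif1, which carries eIF4E into the nucleus and to processing bodies, rose by 0.89 ± 0.18 (adjusted p = 0.000774). Eif4e1b, a relative known from oocytes, had 1 count over the 9 libraries and was not tested.

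Of the eIF4G scaffolds, Eif4g1 and Eif4g3 rose and Eif4g2 was not called. Eif4g1, at chromosome 16, 20668313 to 20692884 on the plus strand, was at 257, 318 and 237 CPM in the 3 Normal libraries, 595, 562 and 702 in Cisplatin and 358, 275 and 341 in RP. Its relative Eif4g3 was at 290.0, 291 and 203 CPM in the 3 Normal libraries, 754, 733 and 622 in Cisplatin and 437, 269 and 387 in RP. In both, Cisplatin stood above Normal and RP, which overlapped, and the changes were 1.20 ± 0.16 (adjusted p = 2.79e-05) and 1.43 ± 0.19 (adjusted p = 3.47e-05). Eif4g2, the relative that lacks the eIF4E-binding site, was at 543, 509 and 575 CPM in the 3 Normal libraries, 463, 524 and 503 in Cisplatin and 525, 607 and 624 in RP. Its Cisplatin and Normal libraries overlapped, with a change of -0.13 ± 0.13 (adjusted p = 0.417) and a 95% interval of -0.40 to 0.14, below that of Eif4g1, 0.86 to 1.53.

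The late factors rose as well. Eif5b, the GTPase that joins the ribosomal subunits, went from 437 ± 16.5 to 1037 ± 173 CPM, with 426 ± 81 in RP, a change of 1.25 ± 0.16 (adjusted p = 3.02e-05). Eif5, which triggers GTP hydrolysis by eIF2, rose by 0.50 ± 0.14 (adjusted p = 0.00939), and Eif5a, the hypusine-bearing factor that also serves elongation, by 0.57 ± 0.11 (adjusted p = 0.000844). Eif6, which keeps the large subunit from joining too early, rose from 19 ± 0.894 to 49.1 ± 0.767 CPM, with 24.7 ± 3.35 in RP, a change of 1.37 ± 0.14 (adjusted p = 4.61e-06). Eif5a2, the second hypusine-bearing gene, had 52 counts in all and was not tested. With Eif2s3y, Eif3j1 and Eif4e1b it makes up the 4 of 48 members that did not pass the filter on low counts.

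**Figure D3:**
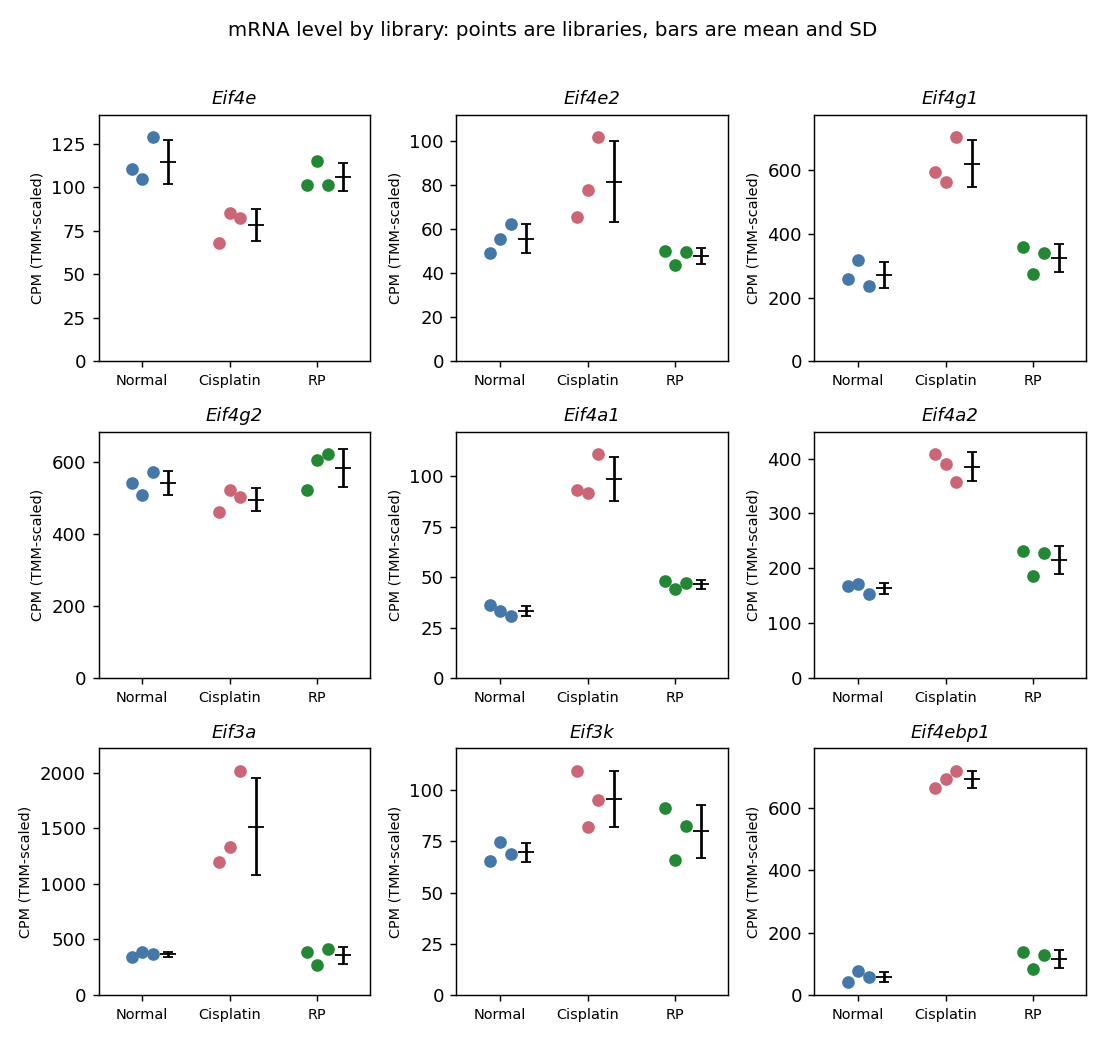
TMM-scaled CPM (y axis, from 0) of 8 initiation factor mRNAs and of Eif4ebp1 in the Normal, Cisplatin and RP groups. Points are libraries and black bars the mean and SD of 3; Eif4e is lowest in Cisplatin, Eif4g2 overlaps between Cisplatin and Normal, and the other 7 genes have their highest mean in Cisplatin, with overlap between Cisplatin and RP for Eif3k.

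Related genes were set against each other within a library, as the ratio of their counts, which does not depend on the scaling of libraries. Counts of 3′ tags are not scaled by length, and the ratios were compared only between groups. Of 7 pairs in 3 comparisons, 21 tests in all, the smallest p that 3 libraries against 3 allow is 0.10, and the smallest value after Benjamini-Hochberg adjustment was 0.263, so none could pass 0.05. The count ratio of Eif4e to Eif4e2 was 2.23, 1.88 and 2.07 in Normal, 1.04, 1.09 and 0.811 in Cisplatin and 2.02, 2.64 and 2.05 in RP. Cisplatin lay below both other groups with no overlap, a log2 difference from Normal of -1.08 (exact permutation p = 0.1, two-sided) and of RP from Cisplatin of 1.19 (exact permutation p = 0.1, two-sided). For Eif4g1 to Eif4g2 the ratio was 0.473, 0.625 and 0.413 in Normal, 1.28, 1.07 and 1.4 in Cisplatin and 0.682, 0.453 and 0.546 in RP. Here Cisplatin lay above both other groups, by 1.33 (exact permutation p = 0.1, two-sided) against Normal, while RP differed from Cisplatin by -1.17 (exact permutation p = 0.1, two-sided).

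The ratio of Eif1 to Eif1b was 5.49, 5.89 and 5.87 in Normal, 11.9, 8.62 and 11.4 in Cisplatin and 10.3, 7.61 and 9.07 in RP. In this pair RP stood with Cisplatin: it differed from Normal by 0.64 (exact permutation p = 0.1, two-sided) and from Cisplatin by -0.24 (exact permutation p = 0.3, two-sided), with overlap in the latter only. That difference from Cisplatin was -0.15 without Cisplatin replicate 1, -0.39 without Cisplatin replicate 2 and -0.13 without RP replicate 2. Eif4a1 to Eif4a2 differed by 0.32 (exact permutation p = 0.1, two-sided) in Cisplatin against Normal, and by 0.18 without Cisplatin replicate 3. Eif1a to Eif1ax differed by 0.67 (exact permutation p = 0.2, two-sided) between Cisplatin and Normal, which overlapped, and by -0.97 (exact permutation p = 0.1, two-sided) between RP and Cisplatin, which did not. Eif4g1 to Eif4g3 and Eif4e to Eif4e3 overlapped between the groups in all 3 comparisons.

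**Figure D4:**
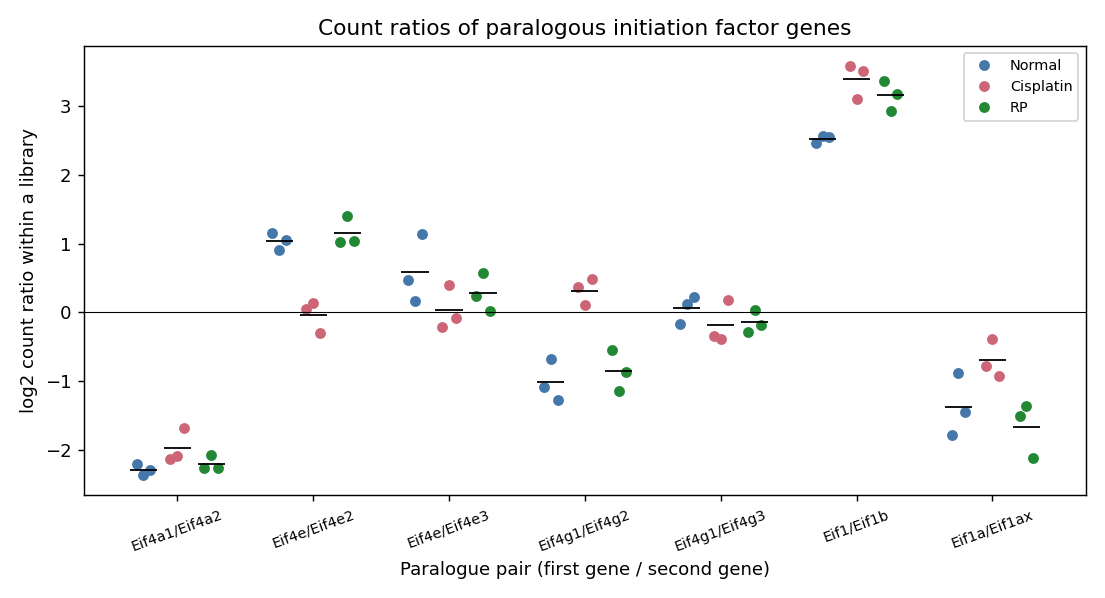
Log2 ratio of the counts of related initiation factor genes within each library (y axis) for 7 pairs (x axis), coloured by group, with a line at each mean of 3 libraries. Cisplatin is apart from both other groups for Eif4e/Eif4e2, below them, and for Eif4g1/Eif4g2, above them.

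Nearly all of these mRNAs were lower in RP than in Cisplatin. Of the 44 tested members 35 fell, 1 rose and 8 were not called, while 48.8% of all genes were called, 24.2% as lower and 24.6% as higher. The median log2 fold change was -0.84 over the members and 0.07 over all genes tested. The 35 that fell are all among the 38 that rose in Cisplatin, and the member that rose is Eif4e. These comparisons share the Cisplatin libraries, so the reversed direction is not independent evidence. Each RP library lay below each Cisplatin library for 35 of the 44 tested members and above for 2, while 7 overlapped. RP and Cisplatin did not overlap in 56.8% of all genes, 27.8% with RP lower and 29% with RP higher.

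The largest falls with RP were those of Eif3a, -2.10 ± 0.21 (adjusted p = 4.60e-06), Eif1a, -1.92 ± 0.22 (adjusted p = 1.72e-05), and Eif3g, -1.45 ± 0.16 (adjusted p = 1.19e-05). Eif5b (-1.28) and Eif3j2 (-1.25) followed. In eIF3, 12 of 13 subunits fell and Eif3k was not called (95% interval -0.58 to 0.07). Of eIF2B, 4 subunits fell, from -1.14 for Eif2b1 to -0.86 for Eif2b3, and Eif2b2 was not called. Of eIF2, Eif2s1 fell by 1.14, Eif2s2 by 1.0 and Eif2s3x by 0.48 on the log2 scale. In eIF4F the changes were Eif4g1 (-0.93), Eif4g3 (-0.95), Eif4a1 (-1.09) and Eif4a2 (-0.84). Eif4e rose by 0.43 ± 0.13 (adjusted p = 0.0167), and this rise was not called without Cisplatin replicate 1 (adjusted p = 0.0739) or without RP replicate 2 (adjusted p = 0.0625). The fall of Eif3h, -0.36 ± 0.14 (adjusted p = 0.0451), was lost with library size scaling, with no filter, with a filter of 5 CPM in 3 libraries, in a fit of the compared groups alone and without Cisplatin replicate 1 or 3 or RP replicate 1 or 2 or 3 (adjusted p = 0.0517 to 0.179). That of Eif2s3x was lost with library size scaling and without Cisplatin replicate 1 (adjusted p = 0.0505 to 0.0896), that of Eif3f with library size scaling and without Cisplatin replicate 2 or RP replicate 2 (adjusted p = 0.0584 to 0.111), that of Eif3i with library size scaling and without RP replicate 1 (adjusted p = 0.0522 to 0.0549) and that of Eif5a with library size scaling (adjusted p = 0.0797).

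Besides Eif3k and Eif2b2, the members not called between RP and Cisplatin were Eif1ad, Eif5, Eif2d, Eif4e3, Eif4g2 and Eif4h. Eif1ad and Eif5 had risen in Cisplatin, and their RP levels, 31.9 ± 4.95 and 297 ± 42.8 CPM, were close to those of Cisplatin, 33.6 ± 3.52 and 314 ± 37.3 CPM. The 95% intervals of the difference were -0.41 to 0.26 and -0.39 to 0.23. For Eif4g2 each RP library lay above each Cisplatin library, at 0.24 ± 0.13 (adjusted p = 0.136), and it was called with library size as the only scaling (log2 fold change 0.38, adjusted p = 0.0187).

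Between RP and Normal none of the 44 members was called by edgeR, where 0.505% of all genes were (0.187% higher and 0.319% lower). At an unadjusted p under 0.05 there were 12 of the 44, all with a higher estimate in RP. The share of all genes under that cut-off was not counted, so these 12 have no background to be read against. DESeq2 called 1 member, Eif1 (adjusted p = 0.003), and 1.78% of all genes. The median log2 fold change was 0.17 over the members and -0.01 over all genes tested. Of the 44 estimates 36 were above 0, against 6342 of 12859 over all genes tested. The 36 became 38 with library size scaling and 31 without RP replicate 3. The members share libraries and scaling, so their signs are not independent. Of the 38 members that rose in Cisplatin, 31 had an RP mean between those of Normal and Cisplatin and 7 had one at or below Normal. The 38 were called higher from these same Normal and Cisplatin libraries, so this order is not independent evidence. Over the 44 tested members, each RP library exceeded each Normal library for 14 and lay below for 0, while 30 overlapped. These groups did not overlap in 19.2% of all genes, 9.65% with RP higher and 9.53% with RP lower. The estimate farthest from 0 was that of Eif1, 0.65 ± 0.15 (adjusted p = 0.0759), with a 95% interval of 0.33 to 0.96. Eif1 was called with library size as the only scaling (adjusted p = 0.0349), with no filter (adjusted p = 0.017) and without RP replicate 2 (adjusted p = 0.0231), within a range of 0.003 to 0.378. For Eif4e the interval was -0.40 to 0.17 and for Eif3a -0.48 to 0.39.

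The regulators of these factors were read from lists of genes with a known role. Of the 4 kinases that phosphorylate eIF2 alpha, 1 rose and 2 fell in Cisplatin (75% called, against 54.5% of all genes). The haem-regulated kinase Eif2ak1 was at 123, 116 and 102 CPM in the 3 Normal libraries, 64.3, 70.5 and 68.4 in Cisplatin and 96.8, 121 and 88.6 in RP. It was lower in every Cisplatin library than in every other, with a log2 fold change of -0.75 ± 0.14 (adjusted p = 0.000532). Eif2ak2, the kinase of double-stranded RNA, fell, with a change of -1.01 ± 0.30 (adjusted p = 0.0123), a call lost without Normal replicate 1 or Cisplatin replicate 2 (adjusted p = 0.0535 to 0.0581). Eif2ak4, the amino acid sensor GCN2, rose by 0.90 ± 0.34 (adjusted p = 0.04) with a mean of 8.6 CPM in Cisplatin. That rise was lost with library size scaling, with a filter of 5 CPM in 3 libraries, with a replicate block, in a fit of the compared groups alone and without Normal replicate 2 or 3 or Cisplatin replicate 2 or 3 (adjusted p = 0.051 to 0.169). Between RP and Cisplatin, Eif2ak1 (0.59) and Eif2ak2 (1.03) rose, the latter not without Cisplatin replicate 2 or RP replicate 3 (adjusted p = 0.0538 to 0.0647), and the other two were not called (50% called, against 48.8% of all genes).

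In the list of the eIF2 alpha phosphatase and the integrated stress response, 5 of 7 genes rose in Cisplatin and none fell (71.4% called, against 54.5% of all genes). Ppp1r15a, the stress-induced subunit GADD34 that directs the phosphatase to eIF2 alpha, was at 18.1, 20 and 11.7 CPM in the 3 Normal libraries, 104, 98.2 and 116 in Cisplatin and 25.2, 17.8 and 26.6 in RP. Cisplatin was far above both other groups, by 2.67 ± 0.21 (adjusted p = 3.54e-07). Atf4, whose mRNA is translated when eIF2 is limiting, rose by 1.71, the GCN2 inhibitor Impact by 1.41 and Ddit3, the transcription factor CHOP, by 0.60. The constitutive subunit Ppp1r15b rose by 0.63. The same 5 genes fell in RP against Cisplatin (71.4% called, against 48.8% of all genes), Ppp1r15a by 2.19 and Atf4 by 1.39 on the log2 scale.

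Of 9 eIF4E-binding proteins and repressors, 4 rose and 3 fell in Cisplatin (77.8% called, against 54.5% of all genes). Eif4ebp1, which keeps eIF4E from eIF4G when not phosphorylated, was at 40, 75.3 and 57 CPM in the 3 Normal libraries, 664, 694 and 721 in Cisplatin and 138, 82.6 and 127 in RP. It was higher in all Cisplatin libraries than in any other, by 3.59 ± 0.24 (adjusted p = 9.72e-08), while Eif4e fell. Larp1, a repressor of ribosomal protein mRNAs, rose by 1.34, and Gigyf2, the partner of Eif4e2, by 0.95. Eif4ebp2 rose by 0.63. Cyfip2 (-2.03), Cyfip1 (-0.32) and the eIF4A inhibitor Pdcd4 (-0.55) fell. Cyfip2 had few counts, 10, 14 and 4 in the 3 Cisplatin libraries, and the SE of its change was 0.53. The fall of Pdcd4 was lost without Normal replicate 2 (adjusted p = 0.0565) and that of Cyfip1 with RLE scaling, with no filter, with Rn45s left out, in a fit of the compared groups alone, by DESeq2 and without Normal replicate 1 or 2 or 3 or Cisplatin replicate 1 or 3 (adjusted p = 0.0525 to 0.16). In RP against Cisplatin 4 of the 9 fell, Eif4ebp1 by 2.58, and 1 rose, Pdcd4 (0.70). These are 5 of 9 (55.6% called, against 48.8% of all genes).

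In the mTORC1 list, 8 of 14 tested genes rose and 2 fell in Cisplatin (71.4% called, against 54.5% of all genes). Sesn1 (3.21) and Ddit4 (2.80), inhibitors of mTORC1, rose most, followed by Mknk2 (2.76), a kinase of eIF4E. Mknk2 was at 111, 143 and 146 CPM in the 3 Normal libraries, 920.2, 837 and 948 in Cisplatin and 215, 146 and 225 in RP, Cisplatin being apart from both other groups. Rheb, the activator of mTORC1, rose by 1.46, and Deptor, an inhibitor, fell by 1.39 on the log2 scale. Tsc2 (-0.48) was the other gene that fell, a call lost without Cisplatin replicate 2 (adjusted p = 0.0609). The rise of Akt1s1 (0.66) was lost with library size scaling and without Normal replicate 1 or 3 or Cisplatin replicate 1 or 3 (adjusted p = 0.0599 to 0.109). Between Cisplatin and RP, 7 fell and 3 rose with RP (71.4% called, against 48.8% of all genes), among the latter Deptor (1.54). Sesn2 did not pass the filter. Among 7 helpers of initiation and recycling, 4 rose in Cisplatin and none fell (57.1% called, against 54.5% of all genes, a share near the background): Abce1, which splits ribosomes, by 1.18, the helicases Ddx3x and Dhx29 by 0.81 and 1.20, and Dhps, the first enzyme of hypusine formation on eIF5A, by 0.89. The same 4 fell in RP against Cisplatin (57.1% called, against 48.8% of all genes), by 1.05, 0.56, 1.18 and 0.62 on the log2 scale. None of these regulators was called between RP and Normal by edgeR, against 0.505% of all genes. At an unadjusted p under 0.05 there were 9, of which Nck1 (-0.52) and Cyfip1 (-0.32) were lower in RP and the others higher. The share of all genes under that cut-off was not counted. DESeq2 called 1.78% of all genes and 3 of the regulators, Eif4ebp1 (1.01), Ddit4 (1.04) and Sesn1 (0.71), all higher in RP. By edgeR Eif4ebp1 was at 1.01 ± 0.22 (adjusted p = 0.0643) in this comparison, and it was called with library size scaling, with no filter, by DESeq2 and without Normal replicate 2 or RP replicate 2 (adjusted p = 0.000973 to 0.046). Ddit4 was called with no filter, by DESeq2 and without RP replicate 2 (adjusted p = 0.00274 to 0.00974), Sesn1 with no filter and by DESeq2 (adjusted p = 0.0222 to 0.0423) and Mknk2 without RP replicate 2 (adjusted p = 0.0445).

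How reads were assigned limits some single members. Of the 50-base words in the last 300 bases of annotated transcripts, those also held by other annotated genes made up 57.1% for Eif2s3x, 42.2% for Eif4a1, 37.5% for Eif1 and 34.3% for Eif3m. The share was 23.7% for Eif2s2, 21.6% for Eif3h, 18.2% for Eif3e and 16.2% for Eif4e. It was 0% for Eif3a and 0% for Eif4g1. The last 500 bases of Eif2d, Eif2s2, Eif3j1, Eif3m, Eif4a2, Eif4enif1 and Eif5b overlap a gene on the opposite strand in GENCODE, and those of Eif4e3 a gene on the same strand. The strand setting of the counting is not given in the sources used here. Whether reads of these genes were kept apart from those of opposite-strand neighbours is therefore not known. For Eif4e3 the strand could not separate them.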

How the data were processed

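Per the labels' protocols, QuantSeq 3′ libraries (Lexogen) were made from 500 ng of Trizol-extracted RNA, and they read a tag near the end of each transcript. For each sample the authors deposited raw read counts, unnormalized, for 23282 rows named by gene symbol. Bowtie2, edgeR and the mm10 build are named in the submitters' processing notes; versions, counting program, strand setting and annotation were not given in the sources used here. Rows sharing a symbol (79 rows, 35 symbols, no member among them) were summed. The test was edgeR 4.0.16 in R 4.3.3: filterByExpr (12859 genes), TMM scaling, glmQLFit on all 9 libraries and glmQLFTest, with Benjamini-Hochberg adjustment over all genes. SEs are the log2 fold change over the square root of F, and 95% intervals use 13.7 degrees of freedom. Replicates of a group differed by more than sampling noise (chi-square per degree of freedom 11.3 to 30.3). At this depth a gene with 3 counts in a library is at 0.285 to 0.362 CPM.

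Count ratios had 0.5 counts added to each gene. Levels in every library are given for the 8 largest called rises and falls in Cisplatin against Normal among members with a mean of at least 5 CPM, for the 3 largest in each direction in the other comparisons and for both genes of each ratio; regulators are the up to 4 called genes of each list with the smallest p. Eif2ak4, Eif4ebp2, Cyfip1, Pdcd4, Ppp1r15b, Ddit4, Tsc2, Akt1s1, Pabpn1, Eif3k and the members with the smallest changes were named after their values were seen. Members, lists and tests were chosen with earlier results of these data known. Alternatives were RLE or library size scaling, other filters, DESeq2 1.42.0, fits of 2 groups, a replicate block, Rn45s left out, each library left out and 5 counts added to the ratios. For the regulators these alternatives were added after seeing the data. Gene positions are those of GENCODE M21 (GRCm38, also called mm10); promoters are RefSeq GRCm38.p6. Figures used matplotlib 3.10.9.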

Additional observations from a re-analysis of the deposited data

How the results depend on the processing

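No called initiation factor and no called gene of the other lists changed sign in any alternative. In Cisplatin against Normal the number that rose was 35 to 39 over the settings that keep all libraries and 34 to 37 with 1 library left out, and the number that fell was 1 in each, always Eif4e. In RP against Cisplatin the number that fell was 30 to 35 and, with 1 library left out, 33 to 34. The number that rose there was 2 with library size scaling, which added Eif4g2, and 0 to 1 with 1 library left out. In RP against Normal it was 1, Eif1, with library size scaling, no filter and DESeq2, and 0 to 1 with 1 library left out. Library size as the only scaling moved the median of all genes from 0.07 to 0.21 in RP against Cisplatin, and from -0.08 to -0.15 in Cisplatin against Normal; changes are given on the TMM scale. Over all genes in RP against Normal, where 24 were higher and 41 lower, 36 were higher and 24 lower with library size scaling, 123 and 170 with no filter, and 103 and 126 with DESeq2. With 1 library left out, 8 to 59 were higher and 14 to 58 lower. The count ratios with 5 counts added or a library left out moved by less than the pooled SD of the 2 groups compared. Among single members, 18 of the 616 alternative values lost a call in Cisplatin against Normal and 19 in RP against Cisplatin, and the cause was not tested. Replicate numbers are shared between groups, and the labels give no pairing. Same-numbered libraries did not all deviate together (correlations of -0.06 to 0.04 in Cisplatin against Normal, 0.01 to 0.16 in RP against Cisplatin, where numbers 2 and 3 had the highest of the 9 pairs, and -0.12 to 0.02 in RP against Normal). With the replicate number as a block, 38 members rose and 1 fell in Cisplatin against Normal, 35 fell and 1 rose in RP against Cisplatin, and 0 were called in RP against Normal.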

Other observations

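Factors that act after initiation were read in the same fit. Of 8 elongation factor genes, 4 rose in Cisplatin against Normal and none fell (50% called, against 54.5% of all genes, a share near the background). Their median log2 fold change was 0.32. Eef2, which moves the ribosome along the mRNA, was at 715, 787 and 747 CPM in the 3 Normal libraries, 1508, 1435 and 1667 in Cisplatin and 1203, 889 and 1125 in RP, so that the groups did not overlap and RP lay between the others. Its change in Cisplatin was 1.04 ± 0.14 (adjusted p = 5.01e-05). Eef1a2, the tRNA-delivering factor of adult muscle, rose by 0.69 ± 0.15 (adjusted p = 0.00137), from 541 ± 15.5 to 870.2 ± 115 CPM, whereas its relative Eef1a1 was not called, at 253 ± 20 and 229 ± 54.6 CPM with a 95% interval of -0.51 to 0.22. Eef1g and Eef1d, subunits of the exchange factor of eEF1A, rose by 0.63 and 0.46. In RP against Cisplatin 4 fell, Eef1g (-0.60), Eef2 (-0.52), Eef1a2 (-0.52) and Eef1d (-0.35), and 1 rose (62.5% called, against 48.8% of all genes). The riser was Eef2k, the kinase that inhibits eEF2, at 0.51 ± 0.14 (adjusted p = 0.00937). The fall of Eef1a2 was lost with library size scaling (adjusted p = 0.0554) and that of Eef1d with library size scaling, with no filter, in a fit of the compared groups alone and without Cisplatin replicate 1 or RP replicate 2 (adjusted p = 0.0524 to 0.167).

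Among 8 poly(A)-binding proteins and their partners, 4 rose and 1 fell in Cisplatin (62.5% called, against 54.5% of all genes). Pabpc1, which bridges the mRNA tail to eIF4G, was at 209, 261 and 238 CPM in the 3 Normal libraries, 517, 512 and 526 in Cisplatin and 159, 144 and 192 in RP. Cisplatin was highest and RP lay below Normal in every library, with changes of 1.13 ± 0.14 (adjusted p = 1.71e-05) in Cisplatin and, not called, -0.52 ± 0.14 (adjusted p = 0.134) in RP against Normal. Of its repressors, Paip2b rose by 1.37 and Paip2 fell by 0.34 on the log2 scale (adjusted p = 0.029), a fall lost with no filter and without Normal replicate 1 or 2 or Cisplatin replicate 3 (adjusted p = 0.0591 to 0.126). Larp4, which binds poly(A) and Pabpc1, rose by 1.05, and Pabpn1, the nuclear poly(A)-binding protein, by 0.40, lost with library size scaling, with a filter of 5 CPM in 3 libraries and without Normal replicate 2 or 3 or Cisplatin replicate 1 (adjusted p = 0.0647 to 0.146). In RP against Cisplatin Pabpc1 (-1.65), Larp4 (-1.11), Paip2b (-1.09) and Larp4b (-0.39) fell (50% called, against 48.8% of all genes, a share near the background). The fall of Larp4b was lost with library size scaling and without Cisplatin replicate 2 or RP replicate 2 (adjusted p = 0.0517 to 0.112). Of 3 termination factor genes, Etf1 rose by 1.04 ± 0.18 (adjusted p = 0.000251) in Cisplatin and was the only one called (33.3% called, against 54.5% of all genes). With RP against Cisplatin 2 of the 3 fell, Etf1 (-0.66) and Gspt2 (-0.92) (66.7% called, against 48.8% of all genes). The fall of Gspt2 was lost without Cisplatin replicate 3 or RP replicate 1 or 2 (adjusted p = 0.0832 to 0.116). Between RP and Normal edgeR called none of these genes, against 0.505% of all genes. At an unadjusted p under 0.05 there were 4, and the share of all genes under that cut-off was not counted. DESeq2 called Pabpc1 (lower) and Eef2 (higher), and 1.78% of all genes. The background for the other counts is the 54.5% (Cisplatin against Normal) and 48.8% (RP against Cisplatin) of all genes called.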
